A study of Mus musculus with 8 samples.

Results

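The genes examined here make, store, recapture, sense and break down dopamine, together with a nuclear receptor that dopamine neurons of the midbrain need. They are *Th*, *Ddc*, *Gch1*, *Slc18a2*, *Slc6a3*, *Drd2*, *Maoa*, *Maob* and *Nr4a2*. The members were the probes of the array, control spots excepted, whose gene name is one of these 9. This gave 9 of the 22169 named genes and 13 of the 55681 probes, with 2 probes each for *Ddc*, *Gch1*, *Slc18a2* and *Nr4a2* and 1 for each other gene, and all 13 were well above background on all 8 arrays.

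The data came from the hypothalamus (HT) of adult male C3H/HeN mice (strain C3H/Hen in the labels), 4 of the control group and 4 of the maternal separation (MS) group. The pups of the MS group, labeled Stress, were taken from their dam for a session on each day from postnatal day (PND) 2 to 14. During these sessions the dam itself received chronic unpredictable stress, and control litters were not disturbed. All mice had done an operant task for palatable milk and were deprived of food before they were culled. The paper reports that MS males of this strain pressed more for the reward than control males. For another brain region, the nucleus accumbens, it names unequal exposure to palatable food and fasting as possible influences on gene expression. Exposure to the reward was therefore not necessarily equal in the groups. The HT was dissected, and 200 ng of total RNA of each mouse, labeled with Cy3, went onto an array of its own. All 8 arrays were on 1 slide in 2 rows, each with 2 control and 2 MS mice. Row 1 held control 8.2 and 8.4 with MS 5.3 and 7.2, and row 2 held control 6.2 and 8.5 with MS 7.1 and 7.6. Control 8.2, 8.4 and 8.5 have the same first part of the number, as do MS 7.1, 7.2 and 7.6, and the groups share none. The sources do not explain this first part, nor name litters or cages, so the p-values measure only the spread between these mice. If it names a litter or cage, mice with the same first part are not independent.

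Tyrosine hydroxylase, encoded by *Th*, is the rate-limiting enzyme of dopamine synthesis, and aromatic L-amino acid decarboxylase, encoded by *Ddc*, makes dopamine from its product. Dopamine is packed into vesicles by the vesicular monoamine transporter VMAT2 (*Slc18a2*), taken back from the extracellular space by the dopamine transporter (*Slc6a3*) and degraded by monoamine oxidases A and B. In the hypothalamus, dopamine neurons of the arcuate nucleus release dopamine toward the pituitary, where it restrains prolactin secretion, and others lie in the periventricular zone and the zona incerta. The HT was analysed as bulk tissue, in which fewer cells of a type and less RNA per cell cannot be told apart.

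The sequences that bear on the comparison are those of 3 of the probes, of the part shared by both *Slc18a2* probes and of a pair of promoters. The probe of *Drd2* (chr9:49215047-49215106, mm9, plus strand), the second probe of *Ddc* (chr11:11776262-11776321, minus strand) and the first of *Nr4a2* (chr2:56960699-56960758, minus strand) are 60 bases long and are shown whole, since each value below is the brightness of such a probe.
*Drd2* probe A_52_P529650: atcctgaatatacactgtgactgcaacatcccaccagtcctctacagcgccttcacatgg
*Ddc* probe A_52_P63905: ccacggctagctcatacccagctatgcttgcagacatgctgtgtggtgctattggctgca
*Nr4a2* probe A_52_P494622: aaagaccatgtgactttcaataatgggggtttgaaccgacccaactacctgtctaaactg

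The probes of *Slc18a2* (chr19:59370106-59370165 and chr19:59370153-59370212, mm9, plus strand) start 47 bases apart and share 13 bases, given in capitals at the end of the first and the start of the second. They are therefore not independent readings of the transcript.
*Slc18a2* probe A_55_P2143946, last bases: aggcatgcCTGTTACTGCTCT
*Slc18a2* probe A_55_P2000489, first bases: CTGTTACTGCTCTccaaagaa

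The promoters come from RefSeq with the build GRCm38.p6, which holds 9 windows for 8 of the genes and none for *Maob*. The palindromic cyclic AMP response element (CRE) TGACGTCA was found in the 300-base window of *Th* and of *Slc18a2* and in no window of the other 6 genes, and 1.79% of all 32851 windows hold it. It is in capitals in both sequences, from base -45 to -38 of the *Th* start (chr7:142899976-142900245, minus strand) and from base -4 to 4 of the *Slc18a2* start (chr19:59260628-59260897, plus strand). Each sequence holds the 250 bases before the start and the 20 after it.
*Th* promoter: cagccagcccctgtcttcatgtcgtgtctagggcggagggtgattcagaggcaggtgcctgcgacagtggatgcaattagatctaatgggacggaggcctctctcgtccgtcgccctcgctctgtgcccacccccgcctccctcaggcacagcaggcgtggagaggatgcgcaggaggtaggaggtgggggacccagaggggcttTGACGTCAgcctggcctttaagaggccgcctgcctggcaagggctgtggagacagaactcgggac
*Slc18a2* promoter: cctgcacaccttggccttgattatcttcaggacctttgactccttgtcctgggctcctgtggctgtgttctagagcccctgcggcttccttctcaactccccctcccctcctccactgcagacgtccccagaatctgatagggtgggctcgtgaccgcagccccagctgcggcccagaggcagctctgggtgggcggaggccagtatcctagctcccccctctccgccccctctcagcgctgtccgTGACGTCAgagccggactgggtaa

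On both strands, the Nur-type response element AAAGGTCA, which the product of *Nr4a2* can bind, was found in 1.51% of all windows and, among these genes, only in a window of *Ddc*. The letters TATAAA were found in 13.6% of all windows and in those of *Ddc*, *Gch1* and *Nr4a2*. These are matches of letters and not measured binding.

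No probe of the 9 genes differed between MS and control mice past an adjusted p of 0.05 in limma. Neither did any of the 37314 probes tested (0%), of which 1270 (3.4%) had an unadjusted p under 0.05. The paper likewise reports no differentially expressed gene in the hypothalamus. The 2 probes of *Slc18a2* were the only member probes with an unadjusted p under 0.05, both with higher values in MS mice, a direction and limit that 1% of all probes met. Only 1 member probe, of *Slc18a2*, had groups that did not overlap, against 2.03% of all probes. The difference of MS minus control was above 0 for 9 of the 13 member probes and below 0 for 4, while 49.5% of all probes were above 0. By gene, *Th*, *Ddc* and *Drd2* were below 0 and the other members above it, as were 53.6% of all named genes. The median absolute difference was 0.12 over the 13 probes and 0.069 over all probes on the log2 scale, with median SE of 0.11 and 0.095. All differences below are log2 values of MS minus control, from signals set relative to the 75th percentile of the array, and no level of a probe is compared with that of another.

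Across the arrays, 34079 to 39601 probes (61.2% to 71.1%) were well above background, the 75th percentile lay between 567 for MS 7.6 and 1018 for MS 7.2, and no spot was saturated. Defining markers of the labeled tissue were present: all 14 hypothalamic peptide genes on the list were measured, and their mean level was 3.42 to 3.92 above the 75th percentile in the 8 mice. It was lowest in MS 7.2 (3.42) and MS 5.3 (3.49). The difference of MS minus control was below 0 for 9 of the 14 genes (median difference -0.092). Their summed level was 588 to 668 in control and 481 to 665 in MS mice. *Hcrt*, which encodes orexin, was 3.46 in MS 5.3 and 3.54 in MS 7.2 against 5.51 to 6.65 in the other mice, a difference of -1.45 (SE 0.62, unadjusted p = 0.0475, adjusted p = 0.989, limma) that was -3.09 in row 1 and 0.20 in row 2. *Pmch*, which encodes melanin-concentrating hormone, was also lowest in these mice, at 6.02 and 5.97, with a difference of -0.46 (SE 0.13, unadjusted p = 0.00809, adjusted p = 0.989, limma). MS 5.3 and MS 7.2 thus had the lowest values of both these genes, and the part of this in the results on dopamine genes was not tested. Pituitary genes had a summed level (the sum of linear values relative to the 75th percentile) of 85.5 to 396 in control mice, the highest in control 6.2, and 89.3 to 125 in MS mice. This sum holds *Pomc*, which is also on the list of hypothalamic peptide genes and had log2 values of 5.85 to 6.77 in control and 5.80 to 6.58 in MS mice. It therefore does not stand for pituitary tissue alone. The difference of MS minus control was below 0 for 9 of the 10 pituitary genes measured (median difference -0.52). The part of these genes in the results on dopamine genes was not tested.

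**Figure D1:**
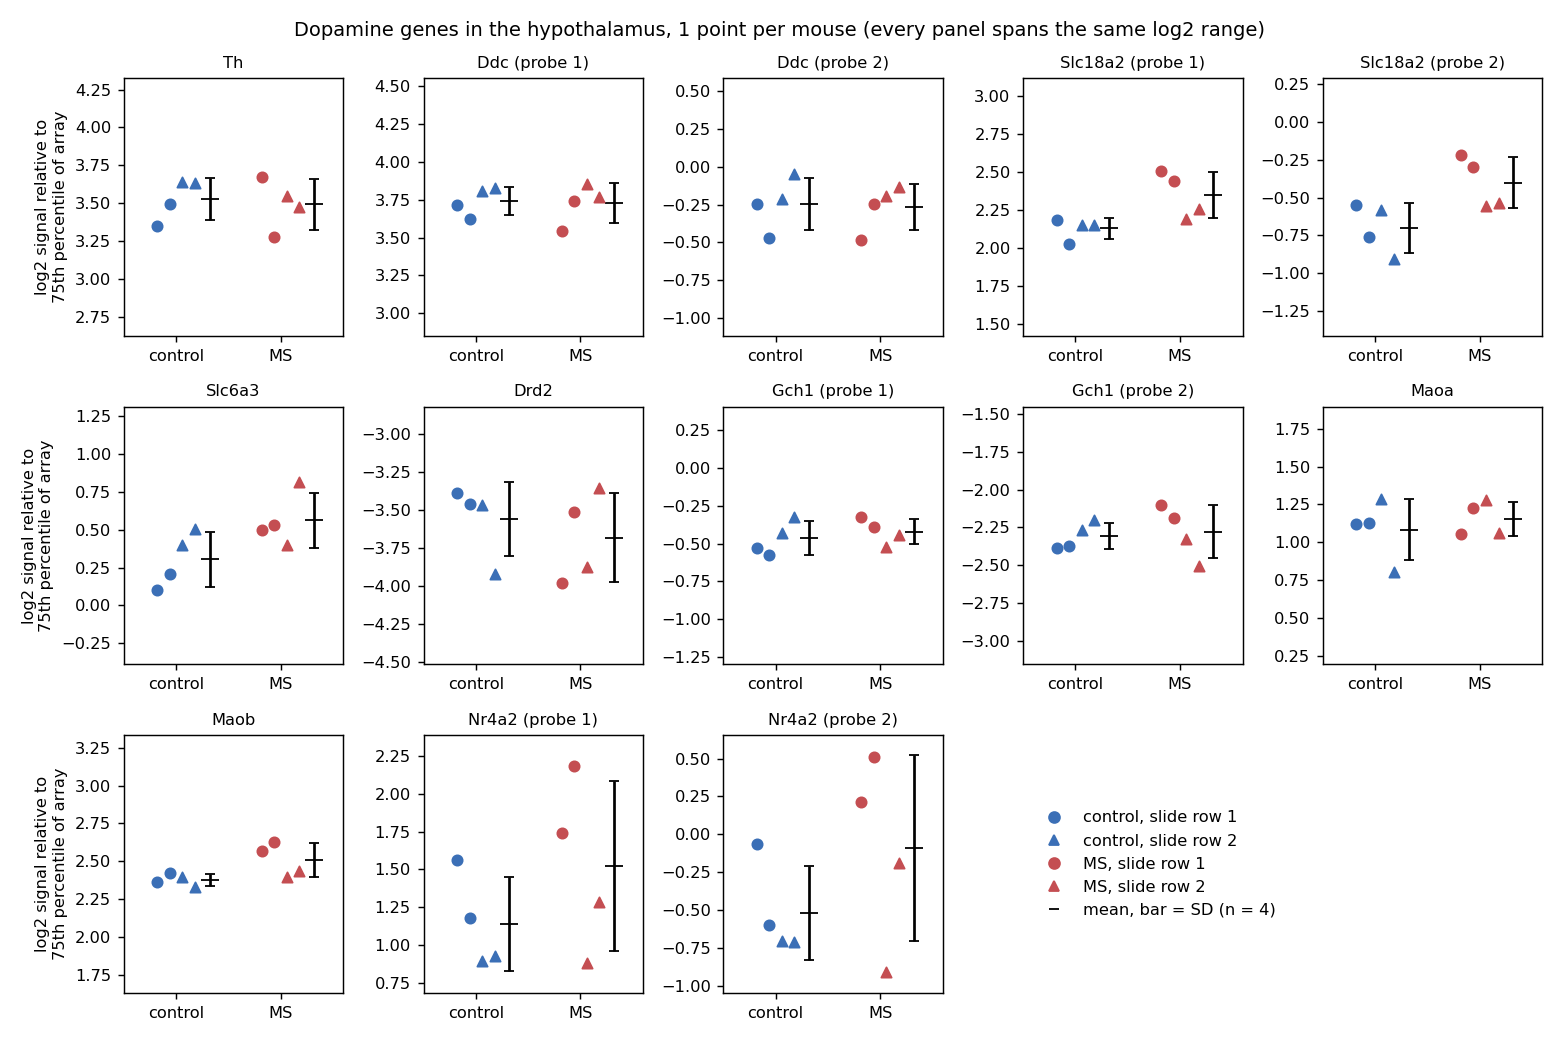
Log2 signal relative to the 75th percentile of the array (y axis) in each of 4 control (blue) and 4 MS mice (red) for the 13 probes of the 9 dopamine genes, with circles for slide row 1, triangles for row 2 and black bars for mean and SD. Each panel spans the same log2 range, the *Slc18a2* probes have MS mice at or above nearly all control mice, and the *Nr4a2* probes show the widest spread.

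The enzymes that make dopamine had nearly the same values in both groups. *Th*, measured by 1 probe (A_55_P2275249, chr7:150078703-150078762, mm9, minus strand), was 3.35 in control 8.2, 3.49 in control 8.4, 3.64 in control 6.2 and 3.63 in control 8.5. It was 3.67 in MS 5.3, 3.27 in MS 7.2, 3.55 in MS 7.1 and 3.47 in MS 7.6, so both the lowest and the highest of the 8 mice were MS mice and the ranges overlapped almost fully. The mean was 3.53 ± 0.14 (SD, n = 4) in control and 3.49 ± 0.17 (n = 4) in MS mice, a difference of -0.035 (SE 0.10, adjusted p = 0.992, limma). Its 95% confidence interval of -0.27 to 0.20 corresponds to between 0.828 and 1.15 times the control level, so that larger changes of *Th* lie outside it. The difference was 0.052 in row 1 and -0.12 in row 2.

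*Ddc* was read by probes 62.2 kb apart. The first (A_55_P2110497) gave 3.71, 3.63, 3.81 and 3.83 in control 8.2, 8.4, 6.2 and 8.5, and 3.54, 3.74, 3.86 and 3.77 in MS 5.3, 7.2, 7.1 and 7.6. The second (A_52_P63905), whose sequence is printed above, gave -0.25, -0.47, -0.22 and -0.052 in the same control mice and -0.48, -0.25, -0.20 and -0.14 in the same MS mice. MS 5.3 was lowest of the 8 mice and control 8.4 next lowest with both probes. Their differences were -0.016 (SE 0.082) and -0.020 (SE 0.11), with intervals of -0.20 to 0.17 and -0.27 to 0.23. The probes followed each other across the 8 mice (r = 0.89), so the spread of *Ddc* between mice was seen by each of them while the groups differed little.

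GTP cyclohydrolase 1, encoded by *Gch1*, starts the synthesis of tetrahydrobiopterin, the cofactor that tyrosine hydroxylase needs. Its first probe (A_55_P2106175, chr14:47775348-47775407) was between -0.57 and -0.32 in control mice and between -0.52 and -0.33 in MS mice. The second (A_52_P298002, chr14:47773797-47773856) was between -2.38 and -2.20 in control mice and between -2.50 and -2.10 in MS mice. The differences were 0.042 (SE 0.075; interval -0.13 to 0.21) and 0.026 (SE 0.095; interval -0.19 to 0.24). They combined opposite values in the rows of the slide, with 0.19 and 0.23 in row 1 and -0.11 and -0.18 in row 2. In row 1 both MS mice lay above both control mice with each probe, and in row 2 both lay below.

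Of the other genes of dopamine and tetrahydrobiopterin synthesis, 8 of 10 were measured. Of these, 7 had differences above 0 and none had an unadjusted p under 0.05. The median was 0.042, against 0.0074 over all 17206 named genes, of which 53.6% were above 0 and 2.67% had an unadjusted p under 0.05. Quinoid dihydropteridine reductase (*Qdpr*), which regenerates the cofactor, differed by 0.059 (SE 0.080), and *Pnmt*, which makes adrenaline, had the smallest p with 0.24 (SE 0.14, unadjusted p = 0.125). *Dbh*, which turns dopamine into noradrenaline, differed by 0.11 (SE 0.25), and *Spr* (sepiapterin reductase) was the only one below 0 (-0.0081, SE 0.11).

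The vesicular transporter gene *Slc18a2* had higher values in MS mice with both probes, though not past the adjusted threshold. With the first probe (A_55_P2143946) control 8.2, 8.4, 6.2 and 8.5 had 2.18, 2.03, 2.15 and 2.15. MS 5.3, 7.2, 7.1 and 7.6 had 2.51, 2.44, 2.19 and 2.25. All MS mice were above all control mice, with a gap of only 0.0062 between MS 7.1 and control 8.2. The means were 2.13 ± 0.069 (SD, n = 4) and 2.35 ± 0.15 (n = 4), a difference of 0.22 (SE 0.084; interval 0.025 to 0.41) or 1.16-fold, with an unadjusted p of 0.0311 and an adjusted p of 0.989 in limma. An exact two-sided permutation test gave p = 0.0286, the smallest that 4 against 4 mice allow.

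With the second probe (A_55_P2000489) control 8.2, 8.4, 6.2 and 8.5 had -0.55, -0.76, -0.58 and -0.91, and MS 5.3, 7.2, 7.1 and 7.6 had -0.22, -0.30, -0.55 and -0.54. The groups overlapped by 0.00593, with MS 7.1 just under control 8.2, and all 4 MS mice were above the control mean. The difference was 0.30 (SE 0.11; interval 0.043 to 0.56) or 1.23-fold, with an unadjusted p of 0.0275 and an adjusted p of 0.989 in limma (exact permutation p = 0.0571). The probes correlated with r = 0.88 over the 8 mice and 0.74 after the group means were removed.

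The size of the *Slc18a2* difference came mostly from row 1 of the slide, where MS 5.3 and 7.2, the mice of lowest *Hcrt* and *Pmch*, were the highest of all mice. It was 0.37 and 0.40 with the probes in row 1 and 0.068 and 0.20 in row 2, and the difference between rows was not tested. Leaving out 1 mouse at a time left 0.17 (without MS 5.3) to 0.27 (without MS 7.1) for the first probe and 0.23 (without control 8.5) to 0.35 (without control 8.2) for the second.

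The transporter also loads vesicles of histamine, serotonin and noradrenaline neurons. Histidine decarboxylase (*Hdc*), which makes histamine, was 3.39 to 3.56 in control and 3.54 to 3.86 in MS mice, a difference of 0.21 (SE 0.087, unadjusted p = 0.0384, adjusted p = 0.989, limma). The list of histamine neurons also held *Hrh3* at 0.079 (SE 0.060) and *Lhx9* at -0.26 (SE 0.087, unadjusted p = 0.0187, limma). *Lhx9* was lowest in MS 7.2 (-3.03) and MS 5.3 (-2.98), the mice of lowest *Hcrt*. The summed level of the 3 listed genes was 34.3 to 36.9 in control and 35.9 to 40.5 in MS mice. Whether these genes stand for histamine neurons alone was not tested. The defining genes of serotonin neurons, *Tph2* and *Slc6a4*, and of noradrenaline neurons, *Slc6a2*, were not well above background on enough arrays to be tested. Of the 3 of 5 serotonin genes and 3 of 6 noradrenergic genes measured, 2 each had differences above 0. The summed level of the serotonin genes was 0.186 to 0.223 in control and 0.156 to 0.232 in MS mice. That of the noradrenergic genes was 0.219 to 0.342 in control and 0.203 to 0.293 in MS mice. *Phox2a*, a factor of noradrenaline neurons, was the one below 0 among the latter, at -1.16 (SE 0.36, unadjusted p = 0.0119, adjusted p = 0.989, limma). The part of histamine neurons in the *Slc18a2* values was not tested.

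The dopamine transporter gene *Slc6a3*, a marker of dopamine neurons that clear their own transmitter, was read by 1 probe (A_51_P214187, chr13:73715973-73716032, mm9, plus strand). Control 8.2, 8.4, 6.2 and 8.5 had 0.10, 0.21, 0.40 and 0.51. MS 5.3, 7.2, 7.1 and 7.6 had 0.50, 0.53, 0.40 and 0.82. All 4 MS mice were above the control mean, 2 of them above every control mouse, and MS 7.1 matched control 6.2. The means were 0.30 ± 0.18 (SD, n = 4) and 0.56 ± 0.18 (n = 4), a difference of 0.26 (SE 0.12; interval -0.015 to 0.53) or 1.20-fold, with an unadjusted p of 0.0608 and an adjusted p of 0.989 in limma. It was 0.36 in row 1 and 0.16 in row 2, and fell to 0.17 without MS 7.6, the highest mouse. *Th*, which dopamine neurons also express, correlated weakly with *Slc6a3* over the 8 mice (r = 0.15, rho = -0.048, exact permutation p = 0.720).

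Among other monoamine transporters, 3 of 6 were measured. *Slc29a4*, a low-affinity monoamine transporter of the plasma membrane, differed by -0.023 (SE 0.051), the vesicular *Slc18a1* by 0.081 (SE 0.14) and the organic cation transporter *Slc22a2* by -0.24 (SE 0.69). *Slc6a2*, *Slc6a4* and *Slc22a3* were not well above background on at least 4 arrays.

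**Figure D2:**
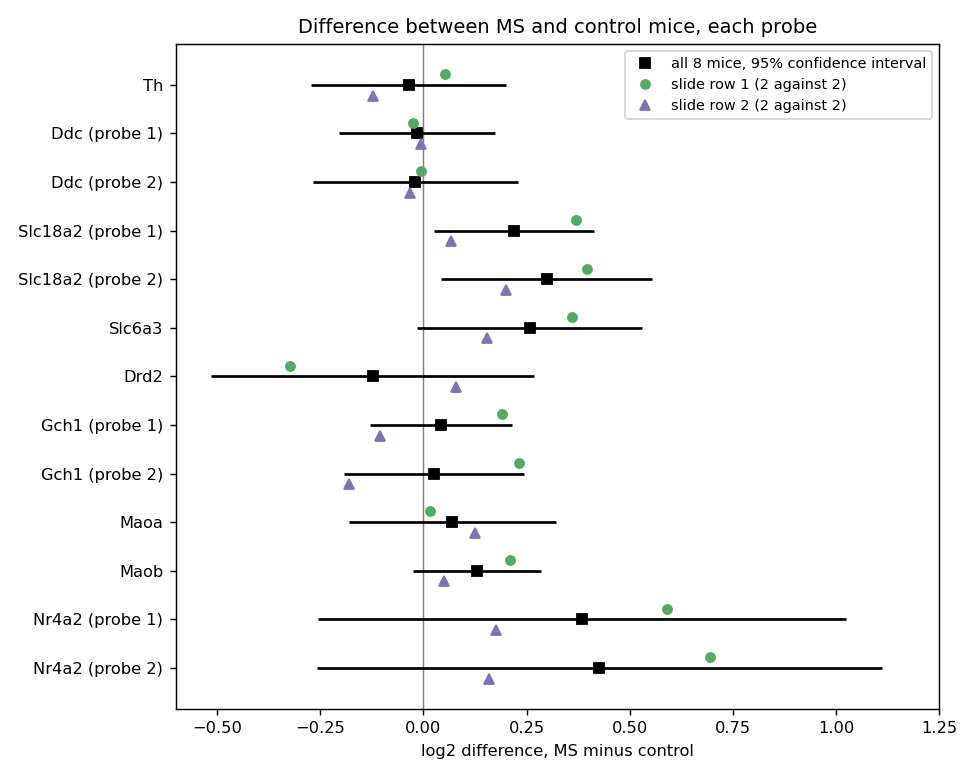
Log2 difference of MS minus control (x axis) for each of the 13 probes (y axis), with squares and lines for all 8 mice and their 95% confidence intervals, circles for slide row 1 and triangles for row 2. The intervals of the 2 *Slc18a2* probes alone lie above 0, and 10 of the 13 probes have a larger absolute difference in row 1 than in row 2.

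The D2 receptor gene *Drd2*, which encodes the autoreceptor of dopamine neurons and a receptor of their targets, varied between mice in both groups. Its probe (A_52_P529650) gave -3.39, -3.46, -3.46 and -3.92 in control 8.2, 8.4, 6.2 and 8.5 and -3.98, -3.51, -3.87 and -3.36 in MS 5.3, 7.2, 7.1 and 7.6. Control 8.5, MS 5.3 and MS 7.1 lay between -3.98 and -3.87 and the other mice of both groups between -3.51 and -3.36. The difference was -0.12 (SE 0.17; interval -0.51 to 0.27; adjusted p = 0.989, limma), with -0.32 in row 1 and 0.078 in row 2. It was -0.24 without control 8.5 and -0.023 without MS 5.3.

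None of the 5 dopamine receptor genes had an unadjusted p under 0.05. Their differences were below 0 with the scaling used here, but with the normexp background *Drd3* (0.00440) and *Drd5* (0.042) were above 0 and *Drd2* (-0.013) and *Drd4* (-0.0043) close to it. In row 2 *Drd2* (0.078) and *Drd5* (0.39) were above 0, as was *Drd5* (0.011) with a random block. The median was -0.13. *Drd3* had the smallest p with -0.23 (SE 0.11, unadjusted p = 0.0755) and was well above background on 7 arrays, and *Drd4* differed by -0.25 (SE 0.26) and was so on 6. The value of *Drd4* was -0.13 with a random block and -0.052 without control 6.2, its highest mouse. *Drd1*, the main receptor of the stimulatory class, differed by -0.13 (SE 0.16) and *Drd5*, of the same class, by -0.032 (SE 0.25). Of the genes of receptor signaling, all 14 were measured, 8 were above 0 and 6 below, and the range was -0.089 for *Ppp1r1b* (DARPP-32, a target of D1 signaling) to 0.15 for *Arrb2* (beta-arrestin 2, which desensitizes receptors).

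Monoamine oxidase B had the narrowest control group of the members. *Maob* (A_51_P302566, chrX:16286427-16286486, mm9, minus strand) was 2.36, 2.42, 2.39 and 2.33 in control 8.2, 8.4, 6.2 and 8.5 and 2.57, 2.63, 2.39 and 2.43 in MS 5.3, 7.2, 7.1 and 7.6. MS 5.3, 7.2 and 7.6 were above every control mouse and MS 7.1 lay among them. The difference was 0.13 (SE 0.068; interval -0.026 to 0.29), with an unadjusted p of 0.0907 and an adjusted p of 0.989 in limma (exact permutation p = 0.0571). It was 0.21 in row 1 and 0.051 in row 2. The enzyme is found mainly in astrocytes and in serotonin and histamine neurons. Of the 10 astrocyte genes measured, 8 had differences above 0 (median difference 0.075). Their summed level was 128 to 137 in control and 128 to 146 in MS mice. *Aqp4* had the smallest p with 0.25 (SE 0.069, unadjusted p = 0.00643, adjusted p = 0.989, limma). The part of the astrocyte genes in the *Maob* values was not tested.

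*Maoa*, which prefers serotonin and noradrenaline and also degrades dopamine, was read by 1 probe (A_55_P2055257, chrX:16264785-16264844). Its values were 1.12, 1.13, 1.29 and 0.80 in control 8.2, 8.4, 6.2 and 8.5, and 1.05, 1.22, 1.28 and 1.06 in MS 5.3, 7.2, 7.1 and 7.6. Control 8.5 was the lowest mouse, and the MS mice lay within the control range. The difference was 0.070 (SE 0.11; interval -0.18 to 0.32), and it was -0.024 without control 8.5. Of the other genes of dopamine breakdown, all 9 were measured and 7 were above 0, with a median of 0.010. The smallest p values in each direction were those of *Akr1a1*, an aldehyde reductase, at 0.075 (SE 0.053, unadjusted p = 0.197) and *Aldh3a2*, an aldehyde dehydrogenase, at -0.098 (SE 0.068, unadjusted p = 0.183).

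*Nr4a2* (Nurr1), an orphan nuclear receptor that dopamine neurons of the midbrain need and that is also induced by neuronal activity, varied more between mice than any other member. The first probe (A_52_P494622) gave 1.56, 1.18, 0.89 and 0.93 in control 8.2, 8.4, 6.2 and 8.5 and 1.74, 2.18, 0.89 and 1.29 in MS 5.3, 7.2, 7.1 and 7.6. The second (A_55_P1983508) gave -0.062, -0.60, -0.70 and -0.71 and then 0.21, 0.51, -0.91 and -0.19 in the same mice. The highest mice were MS 7.2, MS 5.3 and control 8.2, all of row 1, and MS 7.1 was the lowest of the 8 with both probes.

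The probes of *Nr4a2* lie 1.06 kb apart, do not overlap and gave nearly the same order of mice (r = 0.98). Their differences were 0.38 (SE 0.28; interval -0.26 to 1.02) and 0.43 (SE 0.30; interval -0.26 to 1.11), the largest of the members, with adjusted p = 0.989 for both in limma. MS 7.2 and MS 7.1 pulled them in opposite directions, as they were 0.16 and 0.23 without MS 7.2 and 0.60 and 0.70 without MS 7.1. They were 0.59 and 0.69 in row 1 and 0.18 and 0.16 in row 2.

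Of the other transcription factors and trophic receptors of dopamine neurons, 21 of 23 were measured, of which 11 were above 0 and 10 below. *Pitx3*, which midbrain dopamine neurons need, had the smallest p above 0 with 0.14 (SE 0.075, unadjusted p = 0.0985), and *Meis2*, a homeobox factor, the smallest below 0 with -0.19 (SE 0.089, unadjusted p = 0.0618). Of the 10 marker genes of midbrain dopamine neurons, 9 were measured and 6 were above 0 (summed level 22.2 to 29.7 in control and 26.1 to 27.6 in MS mice), and *En1* was not well above background on enough arrays to be tested. *Foxa1*, a forkhead factor of this list, was highest in the same mice as *Nr4a2*, with 0.76 in MS 7.2, 0.54 in MS 5.3 and 0.17 in control 8.2, and lowest in MS 7.1 (-0.57). *Lmx1a*, a homeobox factor, was likewise 0.24, -0.42 and -0.59 in the first 3 of these and -1.50 in MS 7.1, with only control 8.5 lower (-1.60). The differences of *Foxa1* and *Lmx1a* were 0.38 (SE 0.29) and 0.45 (SE 0.37). In the same list *En2*, a homeobox factor, went the other way with -0.16 (SE 0.10) and was lowest in MS 5.3 (-2.43). *Sox6* (-0.0030, SE 0.10) and *Calb1* (-0.034, SE 0.10) were also below 0. The part of midbrain dopamine neurons in the *Nr4a2* values was not tested. Of the genes around tuberoinfundibular neurons, which carry the prolactin receptor, all 15 were measured, 3 were above 0 and 12 below, with a median of -0.059. *Cish*, an inhibitor of cytokine receptor signaling that prolactin induces, was the highest with 0.33 (SE 0.16, unadjusted p = 0.0729), and *Penk*, the proenkephalin gene, had the smallest p below 0 with -0.11 (SE 0.070). The 7 lists hold 81 genes besides the members, of which 74 were measured, with 37 above 0 and 37 below. None of them had an unadjusted p under 0.05, against 2.67% of all named genes.

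**Figure D3:**
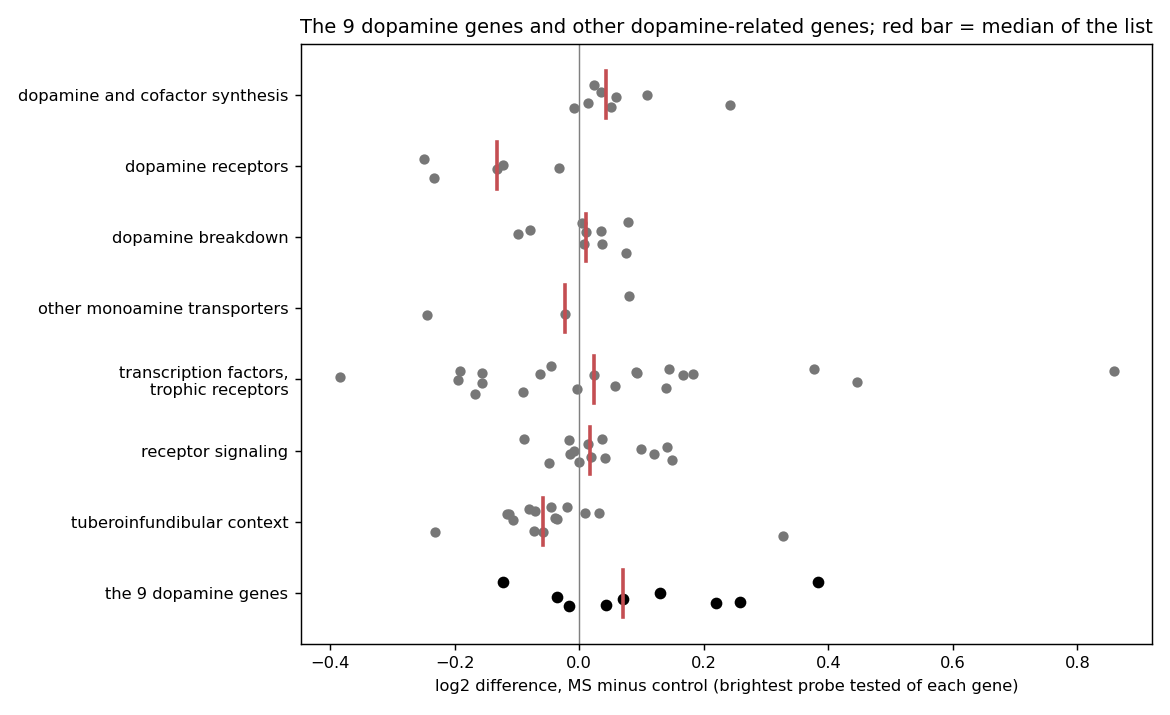
Log2 difference of MS minus control (x axis) for the 9 dopamine genes (black) and the genes of 7 related lists (gray), 1 probe per gene, with a red bar for the median of each list. The receptor genes all lie below 0 (*Drd3* and *Drd5* above it with the normexp background, *Drd2* and *Drd5* in row 2) and the tuberoinfundibular genes mostly so, no gene of these lists passed the test, and the median of the 9 dopamine genes is 0.070.

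*Th* correlated with *Drd2* at r = -0.62 (rho = -0.62, exact permutation p = 0.0993) and with *Nr4a2* at r = -0.62 (rho = -0.43, exact permutation p = 0.102). With *Gch1* it was r = 0.37 (rho = 0.43), and with *Ddc*, *Slc18a2*, *Slc6a3*, *Maoa* and *Maob* r was between -0.30 and 0.15. None of the 8 relations passed after Benjamini-Hochberg adjustment (smallest adjusted p = 0.41, exact permutation), and that with *Nr4a2* rested on MS 7.2 and control 8.2, since r was 0.15 without them. The relation with *Drd2* was -0.66 and that with *Gch1* 0.74 without the same mice.

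Among the 5 named genes most like *Th* over the 8 mice, of 17201 compared, were *Hdac7* (r = 0.96), *Hnrnph3* (r = 0.95), *Rarg* (r = 0.95) and *Olfr1410* (r = 0.93). *Hdac7* and *Hnrnph3* spanned 0.16 and 0.17 over the 8 mice, where *Th* spanned 0.40, and *Olfr1410* spanned 0.46. They were picked as among the highest of the genes searched, over 8 mice, and are given as a description.

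**Figure D4:**
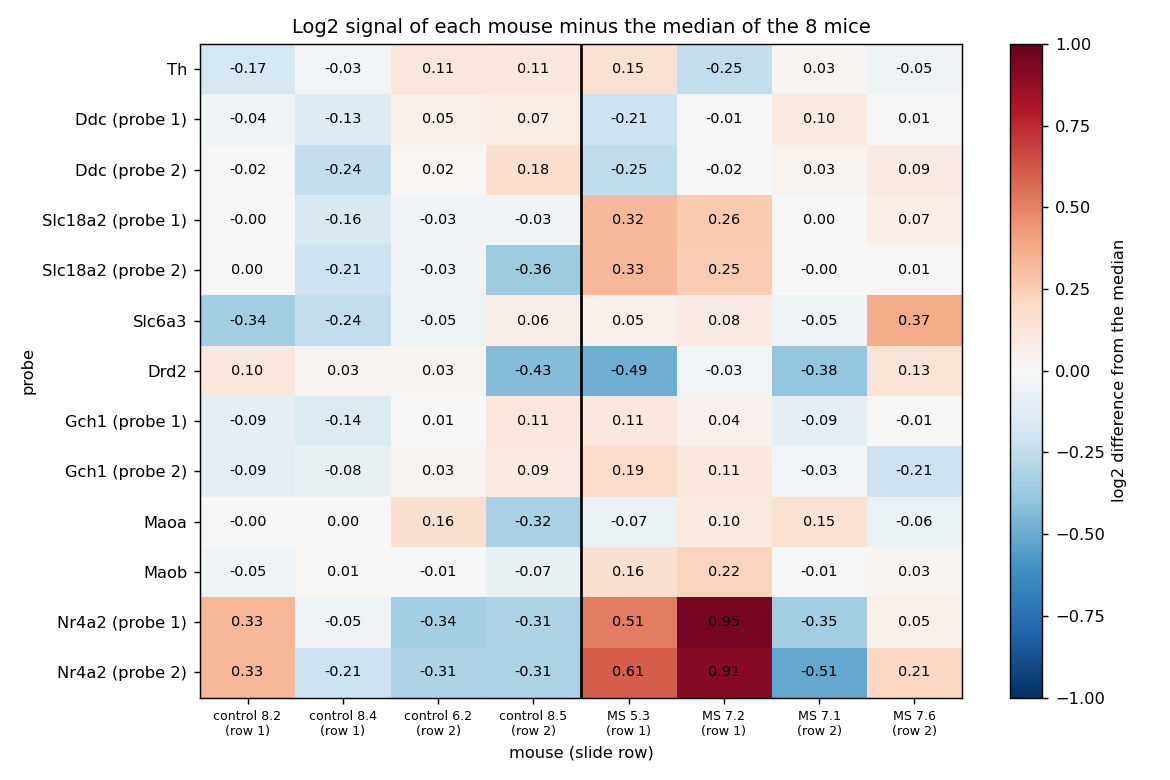
Log2 signal of each mouse minus the median of the 8 mice (color and number in each cell) for the 13 probes (rows) in 4 control and 4 MS mice (columns, split by the black line and ordered by slide row). MS 5.3 and MS 7.2 are above the median for both probes of *Slc18a2*, for *Maob* and for *Nr4a2*, and the largest departure of the *Ddc* probes is -0.25, in MS 5.3.

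Values of *Slc18a2*, *Maob* and *Nr4a2* were thus highest in MS 5.3 and MS 7.2, both in row 1 and both lowest for the peptide genes *Hcrt* (-3.09 in row 1) and *Pmch* (-0.75 in row 1). The thyrotropin-releasing hormone gene *Trh* was also lowest in these mice, with a difference of -1.19 in row 1 and -0.034 in row 2, and the part of these markers in the 3 dopamine genes was not tested. Over all 13 probes the absolute difference was larger in row 1 than in row 2 for 10, while this was so for 42.3% of all probes. In row 1 alone 6 of the 13 had an unadjusted p under 0.05 in limma, where 5.31% of all probes did, and in row 2 alone none had, where 3.17% of all probes did, with 2 mice against 2 in each. These are counts of probes and not of genes, and probes of the same gene followed each other (r = 0.88 for *Slc18a2* and 0.98 for *Nr4a2*). The counts are thus a description, and the difference between rows was not tested. MS 5.3 was also the lowest mouse for *Ddc* and the highest for *Th*.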

How the data were processed

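The HT of 4 control and 4 MS mice was measured with 1 Agilent 1-color array each, and groups come from the sample labels. The authors deposited scanner output with spot intensity, made with Agilent Feature Extraction 10.10.1.1, whose processed intensity has the background subtracted and is corrected for gradients. A log2 table also deposited by the authors was used as an alternative. In the submitters' processing notes limma is named, while how the table was normalized is not stated in the sources. The headers give mm9 positions and an array design other than that in the paper's methods.

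Here R 4.3.3, limma 3.58.1 and version 1.17.8 of data.table were used. Control spots and outlier spots were left out, the 75th percentile of each array was subtracted from the log2 processed intensity, and spots of a probe were averaged. Of 55681 probes, 37314 passed a filter (well above background on 4 or more of 8 arrays) and were fitted with lmFit and eBayes (two-sided, Benjamini-Hochberg over all of them, threshold 0.05). Subtraction of a percentile makes every value relative to its array, and weak spots carry a substitute value, which can affect dim probes. For this comparison, 37296 probes were simulated with independent noise between mice, and a change was added to a small part of them. Of these, limma found 56% of probes changed by 0.5 log2 and 80% of those changed by 1. No change smaller than 0.5 was simulated, while the largest difference of a member probe was 0.43, so the shares do not cover changes of the size seen. They are averages and do not hold for each probe. The *Nr4a2* probes, for example, had SE of 0.28 and 0.30 where the median of all probes was 0.095. The number of arrays limits the precision.

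The probe of highest mean signal stood for a gene in lists and correlations. Summed levels are sums of linear values relative to the 75th percentile. The text names all members, the dopamine receptors, genes of smallest p in each direction of a list, genes among the 5 most like *Th*, and some genes chosen after their values were seen (*Qdpr*, *Dbh*, *Arrb2*, *Slc22a2*, *Hrh3*, *Hcrt*, *Trh*, *Foxa1* and *Lmx1a*). Some genes that this rule would name are not reported here. The members and lists were chosen with earlier results of these data known. Genes were named through accessions or symbols from RefSeq. Alternatives were other scalings, normexp (offset 50), other filters, the authors' table, slide row or the first part of the mouse number as a block, each row alone, other variance models and leaving out each mouse.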

Additional observations from a re-analysis of the deposited data

Results flagged for a closer look

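Within the groups of 4 mice, 3 of 108 sets of values held a mouse that stood apart by Dixon's test at the 95% level, which chance alone does in about 1 of 20 groups. For *Drd2*, control 8.5 had -3.924 where the other control mice lay between -3.464 and -3.386. For the second *Nr4a2* probe, control 8.2 had -0.062 where the others lay between -0.708 and -0.602. For *Slc18a1*, control 6.2 had -3.479 where the others lay between -3.931 and -3.887.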

How the results depend on the processing

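No member probe passed the adjusted threshold in any of 21 settings (smallest adjusted p = 0.5001, limma), and 0 to 6 of the 13 had an unadjusted p under 0.05. The count was 6 in row 1 alone and without MS 7.1. The share of all probes was 3.4% in the main setting, 5.31% in row 1 alone and 3.17% in row 2 alone. It was not computed for the other settings, so these counts are a description. Both *Slc18a2* probes had an unadjusted p under 0.05 in 15 settings, and *Slc18a2*, *Slc6a3*, *Maob* and *Nr4a2* stayed above 0 in all 21. Over all probes the count past the adjusted threshold was 0, but 1 with the first part of the mouse number as a random block (*C80406*, -0.91, chosen after its value was seen) and 1 in row 2 alone (an intergenic probe, A_30_P01030152). The cause of these shifts was not tested.

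Several small differences changed sign, some of them of marker genes (*Ccdc153*, *Tubb3*, *Mag* and *Rax*) that belong to no dopamine list. *Th* was 0.052 in row 1. *Ddc* was 0.00461 and 0.00110 with median scaling, 0.0104 and 0.00708 with the random block and 0.0221 and 0.0313 with array weights. In row 2, *Drd2* was 0.0785, *Gch1* -0.11 and -0.18, *Spr* 0.25, *Ccdc153* 0.00731, *Drd5* 0.39, *Ppp1r1b* 0.0208, *Tubb3* 0.063, *Slc18a1* -0.11 and *Rax* -0.0452, and in row 1 *Mag* was -0.10. *Spr* was 0.0126 with median scaling, *Drd5* 0.0417 with normexp and 0.0109 with the random block, and *Drd3* 0.00440 with normexp. The r of *Th* with *Ddc* was 0.0976 after quantile normalization, with *Slc18a2* 0.00851 with normexp, 0.0863 in the authors' table and 0.50 without MS 7.2 and control 8.2, with *Slc6a3* -0.0731 with normexp and -0.15 without these mice, with *Maob* 0.23 and with *Nr4a2* 0.15 without them.

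With each mouse left out in turn, the range was -0.0957 to 0.0375 for *Th*, -0.0589 to 0.0448 and -0.0945 to 0.0530 for *Ddc*, -0.0326 to 0.10 for the second *Gch1* probe, -0.0239 to 0.14 for *Maoa*, -0.0665 to 0.0574 for *Spr*, -0.25 to 0.13 for *Drd5*, -0.0930 to 0.0114 for *Tubb3* and -0.0479 to 0.21 for *Mag*. No paired analysis was possible because the groups share no mouse numbers.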
